A study of Mus musculus with 11 samples.

Results

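The lysosomal proteases called cathepsins and their inhibitor cystatin C were followed by RNA sequencing through mouse microglia, the resident macrophages of brain tissue. The genes were chosen by name: 9 cathepsin genes (Ctsa, Ctsb, Ctsc, Ctsd, Ctsf, Ctsh, Ctsl, Ctss and Ctsz) and Cst3, together 10 of the 16894 genes in the table. All 10 were found and all 10 passed the filter on low counts in every comparison. The study asks how far transplanted microglia take up the expression of the microglia they replace, with 3 groups of libraries. The cultured group was primary microglia grown in a dish (n = 3), the resident group was microglia sorted from brain (n = 4), and the transplanted group was cells sorted from brain 3 months after transplantation (n = 4). Every library carries the Cx3cr1-GFP genotype, a green reporter at a microglial receptor gene. The labels also attach to every library a protocol in which PLX3397, a drug that blocks Csf1r and so depletes microglia, was fed at 600 mg/kg of chow for 3 depletion cycles. Whether donors of resident cells ate it, and where the transplanted cells came from, is not in the labels. Nor is it said that each replicate is its own culture or animal, and the p-values cover only how far these libraries differ among themselves, possibly for technical reasons.

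Cultured libraries held 26705034 to 28219696 expected read counts, resident libraries 19055655 to 19965631 and transplanted libraries 18692721 to 19761208. The 6 microglial marker genes were all detected in every group. The summed marker level was 30756 to 36210 CPM (read counts scaled to a common library total) in resident and 26440 to 33246 CPM in transplanted libraries, but 1237 to 1690 CPM in cultured libraries. Tmem119, a gene that defines microglia in the adult brain, averaged 6104 CPM in resident, 5760 CPM in transplanted and 11.8 CPM in cultured libraries. Markers of border-associated macrophages summed to 1878 to 2635 CPM in cultured, 45.5 to 91.1 CPM in resident and 22.1 to 49.2 CPM in transplanted libraries, and those of monocytes to 636 to 1251, 17.8 to 35.9 and 2.55 to 5.38 CPM. All 7 and all 6 of these markers were detected in each group. Astrocyte markers, of which all 7 were detected in each group, summed to 40.2 to 82.0, 211 to 266 and 143 to 270 CPM, nearly all of it Slc1a3 in sorted libraries, while Gfap, Aqp4 and Gja1 reached at most 1.35 CPM in any library. Choroid plexus markers summed to 0.334 to 1.02, 0.181 to 106 and 10.2 to 62.7 CPM, mostly Ttr in the libraries where they were high. The summed microglial, macrophage, monocyte and astrocyte markers moved with the contrast between cultured and sorted cells, while the choroid plexus ranges overlapped between cultured and resident libraries. Some single markers went against their sum. Aldoc and Aldh1l1 averaged 47.1 and 18.6 CPM in culture, but 1.44 and 0.817 CPM in resident libraries. Cd163, Lyve1 and Plac8 averaged 0.897, 0.419 and 0.0324 CPM in culture, but 5.96, 3.64 and 0.498 CPM in resident libraries. In culture the macrophage sum was mostly Pf4 and Mrc1, and the monocyte sum mostly F13a1. Neutrophil markers, with 5 of 5 detected in each group, summed to 9.80 to 20.9 CPM in cultured libraries and at most 0.28 CPM in sorted ones. Between the sorted groups, endothelial markers (5 of 5 detected) summed to 38.0 to 56.2 CPM in resident and 13.4 to 18.4 CPM in transplanted libraries, most of it Pecam1. Lymphocyte markers summed to 18.2 to 27.2 CPM in resident libraries, nearly all of it Cd79b with Cd3e at 0, and to 0.774 to 1.39 CPM in transplanted ones. The markers' part in the results for the cathepsins was not tested. In such bulk libraries, fewer cells of a type and less RNA per cell cannot be told apart.

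Cathepsins are made as inactive precursors, carried to the lysosome largely by receptors for mannose 6-phosphate, and cut there to their active form. Cathepsin D is an aspartic endopeptidase, cathepsin A is a serine carboxypeptidase, and cathepsins B, C, F, H, L, S and Z are cysteine proteases of the papain family. Cystatin C is a small secreted protein that blocks cysteine proteases of that family and does not block cathepsin D or A. Microglia degrade material they engulf with these enzymes, and Ctsd, Ctss and Cst3 are known as abundant transcripts of brain microglia.

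Promoter windows from RefSeq (build GRCm38.p6, 250 bases before to 50 bases after each start) matched 8 of the 10 genes, all but Ctsb and Ctsh, and gave 9 windows because Ctsa has a pair of starts. Of these, 4 are shown, those of the most abundant protease, of the start with the closest matches, of a gene with another kind of match, and of the inhibitor, to show how they differ. Capitals mark CACGTG (the core of the E-box bound by factors such as TFEB), TCACGTGA (its extended lysosomal form, which contains the core), GAGGAAGT (a form bound by PU.1, the lineage factor of macrophages) and TATAAA, each searched on both strands, so that a match on the other strand reads as its reverse complement.
Ctsd, chr7:142387778-142388077, minus strand: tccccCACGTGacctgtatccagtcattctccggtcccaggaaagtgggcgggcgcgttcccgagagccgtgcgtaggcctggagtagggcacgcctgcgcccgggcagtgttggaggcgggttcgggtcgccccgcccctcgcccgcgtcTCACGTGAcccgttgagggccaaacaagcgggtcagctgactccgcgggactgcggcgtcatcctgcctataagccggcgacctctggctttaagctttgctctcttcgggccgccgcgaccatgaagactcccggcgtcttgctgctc
Ctsa, chr2:164833523-164833822, plus strand: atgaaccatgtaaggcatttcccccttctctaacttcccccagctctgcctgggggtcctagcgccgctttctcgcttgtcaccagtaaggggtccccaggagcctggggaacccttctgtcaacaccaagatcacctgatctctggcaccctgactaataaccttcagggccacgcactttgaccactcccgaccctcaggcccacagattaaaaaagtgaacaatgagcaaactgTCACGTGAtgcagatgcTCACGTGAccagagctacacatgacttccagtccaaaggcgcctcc
Ctss, chr3:95526536-95526835, plus strand: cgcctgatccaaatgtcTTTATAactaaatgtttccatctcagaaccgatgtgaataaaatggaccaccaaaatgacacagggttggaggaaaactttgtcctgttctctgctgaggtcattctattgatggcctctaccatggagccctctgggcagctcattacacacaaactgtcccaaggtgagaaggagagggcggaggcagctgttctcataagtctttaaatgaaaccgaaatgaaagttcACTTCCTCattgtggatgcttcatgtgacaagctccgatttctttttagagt
Cst3, chr2:148875463-148875762, minus strand: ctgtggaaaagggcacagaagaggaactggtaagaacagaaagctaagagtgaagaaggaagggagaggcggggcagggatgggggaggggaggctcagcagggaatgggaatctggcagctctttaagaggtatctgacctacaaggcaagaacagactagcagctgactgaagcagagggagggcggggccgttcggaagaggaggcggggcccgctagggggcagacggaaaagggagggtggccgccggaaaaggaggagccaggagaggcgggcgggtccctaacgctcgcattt
The Ctsd window holds the core at 245 bases and the extended form at 99 bases before the start. The window at the Ctsa start shown holds the extended form on both sides of that start, and the one at the other Ctsa start holds no match. Ctss has the PU.1 form at its start and the TATA letters far upstream of it. Cst3 holds none of the 4 motifs, which says only that these letters are not in this window. Of all 9 windows, 4 held the core (Ctsa, Ctsd, Ctsf and Ctsl), 2 the extended form (Ctsa and Ctsd), 2 the PU.1 form (Ctsc and Ctss) and 1 the TATA letters. Over the 16925 windows of genes in the table the shares were 8.87%, 1.51%, 3.04% and 8.53%. A match is a description of the letters and not of binding.

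Which of these genes dominated was compared per length, in the authors' TPM, an abundance scaled for gene length and library. Cst3 was the most abundant gene of all, and Ctsd the next, in each of the 8 sorted libraries. Cst3 stood at 85119 ± 5891 TPM in resident (SD, n = 4), 70350 ± 9623 TPM in transplanted (n = 4) and 4441 ± 456 TPM in cultured libraries (n = 3). In culture Ctsd led the set at 17331 ± 3405 TPM and ranked 5 to 9 among all genes, while Cst3 ranked 20 to 22. Together the 10 genes took 12.4% to 13.9% of TPM in resident, 12.2% to 14.0% in transplanted and 3.26% to 4.26% in cultured libraries.

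**Figure D1:**
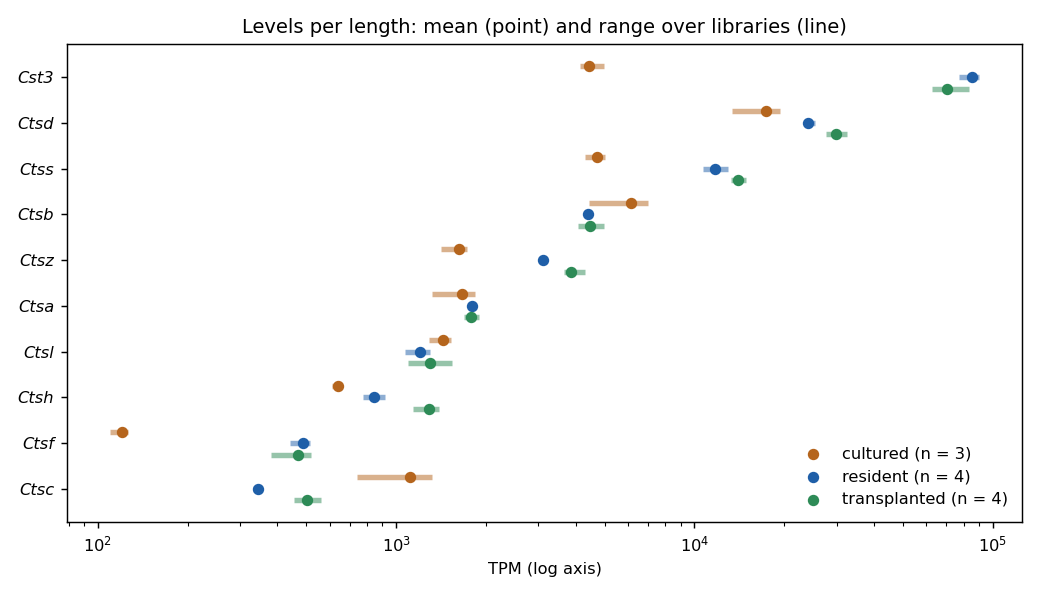
TPM of the 9 cathepsin genes and Cst3 on a log axis, with the mean of each group as a point and the range over its libraries as a line (cultured n = 3, resident n = 4, transplanted n = 4). Cst3 lies above every cathepsin in the 8 sorted libraries and below Ctsd in the 3 cultured ones.

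The order in resident libraries was Cst3, Ctsd, Ctss, Ctsb, Ctsz, Ctsa, Ctsl, Ctsh, Ctsf and Ctsc, and no neighbours in it had overlapping ranges. Ctss, an endopeptidase that stays active at neutral pH, averaged 11712 ± 992 TPM there and Ctsc, which activates serine proteases of immune granules by trimming their ends, 343 ± 9.66 TPM. The transplanted order was the same except that Ctsc came before Ctsf, and there the ranges of Ctsb and Ctsz, of Ctsl and Ctsh, and of Ctsc and Ctsf overlapped. In culture Ctsb, an endopeptidase that also acts as a carboxypeptidase, came next after Ctsd at 6127 ± 1472 TPM. Its range overlapped that of Ctss (4735 ± 384 TPM), which overlapped that of Cst3. Ctsa, Ctsz, Ctsl and Ctsc followed, each overlapping its neighbour, from 1663 ± 298 down to 1114 ± 323 TPM, and Ctsh and Ctsf closed the order at 640 ± 26.7 and 120 ± 8.73 TPM.

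**Figure D2:**
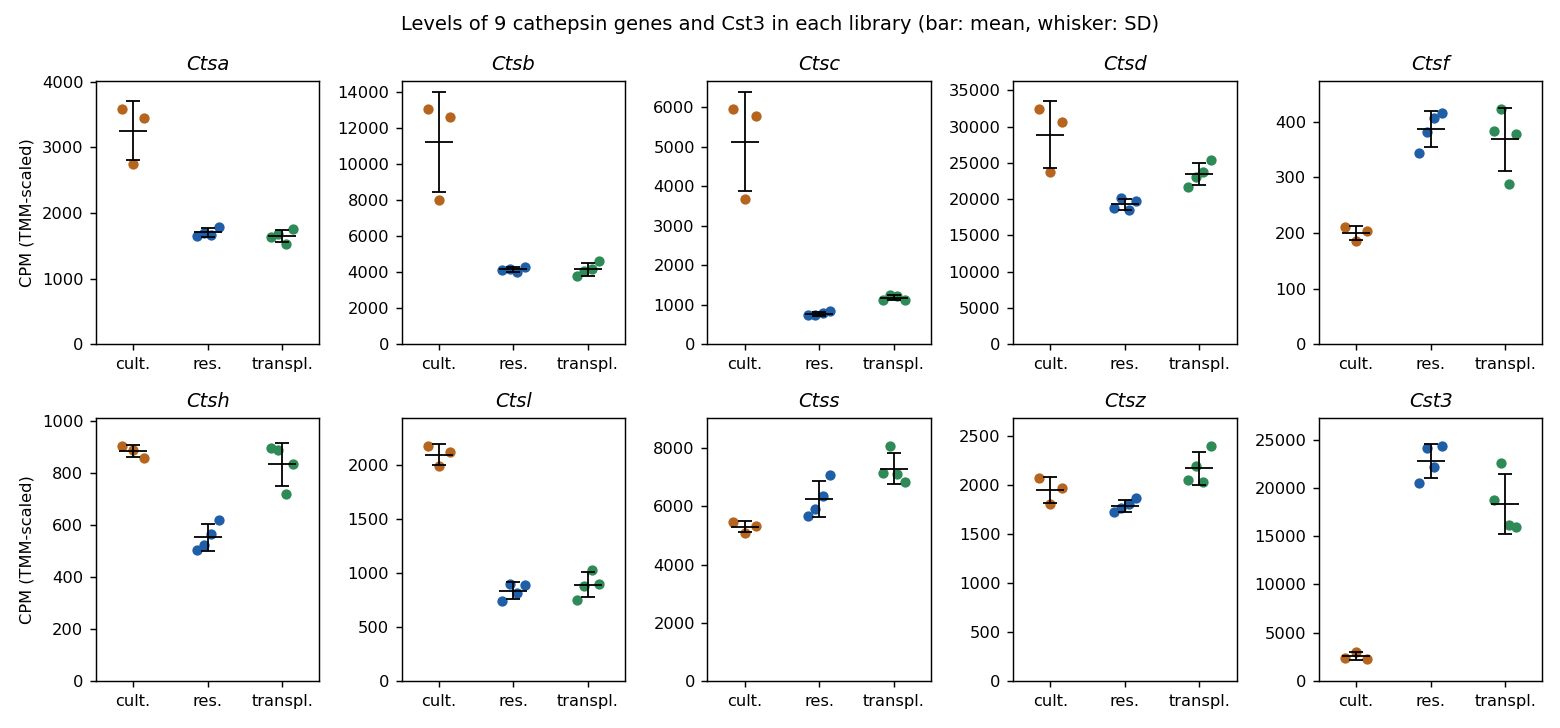
CPM scaled by TMM of each gene in every library, with the mean as a bar and the SD as a whisker, for cultured (n = 3), resident (n = 4) and transplanted (n = 4) libraries. Cst3 and Ctsf sit lowest in culture, and Ctsa, Ctsb, Ctsc and Ctsl sit highest there on this scale, with no overlap between cultured and sorted libraries (on TPM Ctsa is not higher in culture).

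Between groups, levels were set side by side in CPM scaled by TMM. This compares a gene with itself and not with other genes. A gene was called at an adjusted p under 0.05 in edgeR's quasi-likelihood test over all genes, and log2 fold changes are given ± their standard error. Resident cells served as reference for both other groups, and cultured cells as reference for transplanted ones, so the 3 comparisons share libraries.

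Cultured against resident cells asks what differs between microglia in a dish and in the brain. The inhibitor Cst3 was far lower in culture, and 6 of the proteases were higher (3 of them also on TPM). Of the 10 genes, 6 were called higher, against 37.9% of the 12406 genes tested, and 2 lower, against 37.2%. The libraries did not overlap for 9 of the 10, against 75.7% of all genes, so most genes of the table also separated these groups. For the 10 genes the median log2 fold change was 0.67, and for all genes -0.02.

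Cst3 (Entrez 13010, chromosome 2, 148871722 to 148875512), the inhibitor, read 2337, 3011 and 2251 CPM in the cultured libraries and 20555, 24122, 22149 and 24351 CPM in the resident ones. Every cultured library lay far below every resident one. The difference was 8.77-fold, a log2 fold change of -3.13 ± 0.14 (adjusted p = 1.17e-07). It was larger on TPM, at -4.26, and with the trend of counts with gene length removed, at -4.59.

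Ctsd (Entrez 13033, chromosome 7, 142375910 to 142387827), the aspartic protease, read 32387, 23685 and 30581 CPM in culture and 18803, 20124, 18447 and 19722 CPM in resident libraries. The groups did not overlap, but cultured replicate 2 stood well below the other cultured libraries. The log2 fold change was 0.62 ± 0.12 (adjusted p = 0.00104), but -0.50 on TPM. The same library was also the lowest of the cultured ones for Ctsa, Ctsb and Ctsc and the highest for Cst3.

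The cysteine cathepsin that differed most was Ctsc (Entrez 13032, chromosome 7, 88278024 to 88315861). It read 5951, 3676 and 5767 CPM in culture against 731, 729, 787 and 839 CPM in resident libraries. All cultured libraries were above all resident ones, by 6.82-fold or a log2 fold change of 2.77 ± 0.17 (adjusted p = 7.62e-07), against 1.65 on TPM. Ctsb (Entrez 13030, chromosome 14, 63122462 to 63145923) ranged from 7996 to 13022 CPM in culture and from 4010 to 4304 CPM in resident libraries, a log2 fold change of 1.47 ± 0.16 (adjusted p = 2.96e-05). Ctsl (Entrez 13039, chromosome 13, 64361890 to 64370772), an endopeptidase, ranged from 1990 to 2178 and from 740 to 903 CPM, a log2 fold change of 1.36 ± 0.11 (adjusted p = 3.48e-06). Both were higher in every cultured library. Ctsh (Entrez 13036, chromosome 9, 90054267 to 90076095), mainly an aminopeptidase, read 905, 890 and 859 CPM in culture and 503, 525, 567 and 620 CPM in resident libraries. It was higher in every cultured library, with a log2 fold change of 0.71 ± 0.11 (adjusted p = 0.000246), but -0.39 on TPM.

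Ctsf (Entrez 56464, chromosome 19, 4855165 to 4860918), another papain-family protease, was the only protease of the 9 called lower in culture with TMM. It ranged from 185 to 210 CPM there and from 344 to 416 CPM in resident libraries (log2 fold change -0.92 ± 0.11, adjusted p = 5.83e-05). Ctss (Entrez 13040, chromosome 3, 95526786 to 95556405) was not called: it ranged from 5104 to 5477 CPM in culture and from 5662 to 7087 CPM in resident libraries (log2 fold change -0.20 ± 0.11, adjusted p = 0.112). Other scalings called Ctss lower in culture. It stood at -0.23 with DESeq2 (adjusted p = 0.045) and -0.37 with upper quartile scaling in edgeR (adjusted p = 0.011). In edgeR it was -0.79 both with library totals (adjusted p = 9.06e-05) and with the length trend removed (adjusted p = 0.000199). On TPM with limma it was -1.31 (adjusted p = 3.94e-06). Ctsz (Entrez 64138, chromosome 2, 174427494 to 174439039), a carboxypeptidase, was not called either, and its groups overlapped (0.16 ± 0.10, adjusted p = 0.156), though without cultured replicate 2 it was called higher at 0.18 (adjusted p = 0.024). Ctsa (Entrez 19025, chromosome 2, 164832872 to 164841032), the serine carboxypeptidase that protects lysosomal sialidase and β-galactosidase, ranged from 2738 to 3580 CPM in culture and from 1650 to 1790 CPM in resident libraries. It was higher in every cultured library (0.97 ± 0.12, adjusted p = 5.28e-05), but stood at -0.13 on TPM.

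Several of these directions rest on the scaling between libraries. With TPM tested by limma (pseudocount 1), the median of all genes in cultured against resident cells was -0.95, and with counts scaled by library totals it was -0.60. The share of calls that were higher in culture was then 20.3% and 31.4%, against 50.5% with TMM. On TPM, Ctsz stood at -0.95, and Ctsd, Ctsh and Ctsa had the values given above, with signs opposite to those with TMM. Relative to the median gene of the same analysis, Ctsd stood at 0.46, Ctsh at 0.56 and Ctsa at 0.82. With library totals in edgeR, Ctsd and Ctsh were not called (0.03 and 0.13, adjusted p = 0.79 and 0.28). Ctsb, Ctsc and Ctsl were called higher and Ctsf and Cst3 lower in culture in each of the 16 alternatives tried, though Ctsb stood at 0.45, Ctsl at 0.26 and Ctsf at -2.01 on TPM.

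**Figure D3:**
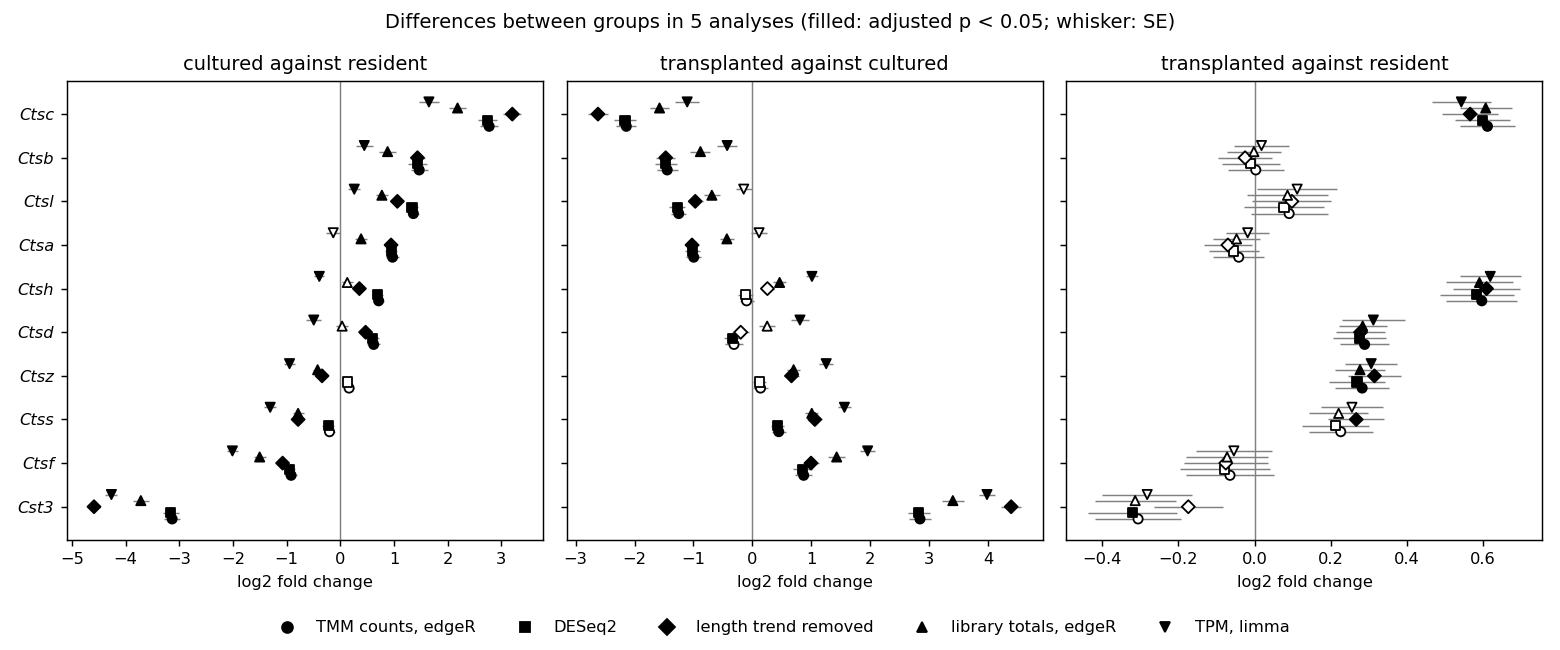
Log2 fold change of each gene in the 3 comparisons under 5 analyses, with the SE as a whisker and filled symbols for an adjusted p under 0.05. Cst3 lies far to the left for cultured against resident cells in all 5, while Ctsd, Ctsh, Ctsa and Ctsz change sides with the scaling.

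In transplanted against cultured cells Cst3 was far higher and Ctsc and Ctsb were lower. These values share their cultured libraries with the comparison above. Of the 10 genes, 3 were called higher in transplanted cells, against 36.9% of the 12284 genes tested, and 4 lower, against 35.5%. The libraries did not overlap for 7 of the 10, against 73.3% of all genes. The 10 genes had a median log2 fold change of -0.21, and all genes one of 0.05. On TPM the median of all genes was 0.98 and 80.8% of calls were higher, and with library totals 0.61 and 69.0%, against 51.0% with TMM.

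Cst3 read 18763, 22621, 16153 and 15922 CPM in the transplanted libraries, each above every cultured library. It was 7.18-fold higher, a log2 fold change of 2.84 ± 0.19 (adjusted p = 8.39e-07), and stood at 3.98 on TPM and 4.39 with the length trend removed. Ctsf, at 288 to 422 CPM, rose by 0.87 ± 0.15 (adjusted p = 0.00041), and Ctss, at 6851 to 8082 CPM, by 0.45 ± 0.12 (adjusted p = 0.00733). These 3 were called higher in each of the 16 alternatives, and on TPM Ctss stood at 1.56 and Ctsf at 1.95. Ctsc read 1131, 1244, 1209 and 1114 CPM, below every cultured library, and fell by 2.14 ± 0.17 on the log2 scale (adjusted p = 2.42e-06). Ctsb, at 3759 to 4632 CPM, fell by 1.45 ± 0.18 (adjusted p = 4.86e-05). Both were called lower in each of the 16 alternatives, at -1.11 and -0.43 on TPM.

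Ctsl, at 746 to 1028 CPM, fell by 1.25 ± 0.13 (adjusted p = 1.64e-05), and Ctsa, at 1522 to 1752 CPM, by 1.00 ± 0.13 (adjusted p = 7.25e-05). On TPM neither was called, and Ctsa stood at 0.11. Ctsd, Ctsh and Ctsz were not called, and their groups overlapped. Ctsd stood at -0.31 ± 0.15 (adjusted p = 0.08), and at -0.43 (adjusted p = 0.0062) without cultured replicate 2. On TPM it stood at 0.81, Ctsh at 1.01 and Ctsz at 1.25, all called higher in transplanted cells.

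On a scale where 0 is the cultured and 1 the resident mean of log2 CPM, the transplanted mean of Cst3 lay at 0.90, of Ctsf at 0.92, of Ctsl at 0.94, of Ctsb at 1.00 and of Ctsc at 0.78. These are the 5 genes called in the same direction between cultured and resident cells in each alternative. Of the other 3 genes called there with TMM, Ctsa lay at 1.05, Ctsd at 0.51 and Ctsh at 0.13, so Ctsh stood near its cultured level on this scale and Ctsd between the groups. Ctsa, Ctsd and Ctsh change sign on TPM, so these 3 positions depend on the scaling. Other positions can move with it too. On TPM Ctsl stood at 0.26 in cultured and 0.11 in transplanted against resident cells, so it lay nearer the middle there. Ctsc stood at 1.65 and 0.54. Ctsb (0.45 and 0.02), Ctsf (-2.01 and -0.05) and Cst3 (-4.26 and -0.28) lay near the resident level on TPM as well. Ctss lay at 1.95 and Ctsz at -1.22, both outside the range of the reference groups, which differed by only 0.23 and -0.12 in resident minus cultured log2 CPM.

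Transplanted against resident cells asks how closely the transplanted cells match the cells of the brain. Here the median of all genes stood at 0.03 on TPM and 0.01 with library totals, so the scaling moved it little. Of the 10 genes, 4 cathepsins were called higher in transplanted cells, Ctsc, Ctsh, Ctsd and Ctsz, against 7.17% of the 11929 genes tested, and 0 lower, against 5.86%. Over all genes 855 were higher, but 511 without resident replicate 3 and 519 without resident replicate 2. At an unadjusted p under 0.05, 1 of the 10 was lower, Cst3, and DESeq2 called it. The libraries did not overlap for the 4 cathepsins called higher in the main test, against 19.7% of all genes. The 10 genes' log2 fold changes had a median of 0.16, against 0.02 for all genes.

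Ctsc was 1.53-fold higher, with all 4 transplanted libraries (1114 to 1244 CPM) above all 4 resident ones (729 to 839 CPM). Its log2 fold change was 0.61 ± 0.07 (adjusted p = 0.000368). Ctsh read 896, 889, 718 and 834 CPM in transplanted libraries, all above the highest resident one. It was 1.51-fold higher, with a log2 fold change of 0.60 ± 0.09 (adjusted p = 0.00225). Ctsc and Ctsh were called in each of the 17 alternatives.

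Ctsd read 21640, 23078, 23730 and 25409 CPM in transplanted libraries, all above the resident ones. It was 1.22-fold higher, with a log2 fold change of 0.29 ± 0.06 (adjusted p = 0.0151). Ctsz read 2043, 2193, 2029 and 2394 CPM in transplanted and 1719, 1763, 1800 and 1864 CPM in resident libraries, also without overlap. It was 1.22-fold higher too (0.28 ± 0.07, adjusted p = 0.0271). With 1 library left out, Ctsd ran from 0.25 to 0.33 and Ctsz from 0.23 to 0.31, so the differences themselves moved little. The calls did not all hold: Ctsd was not called without resident replicate 1 (adjusted p = 0.11), 3 (0.081) or 4 (0.053). Ctsz was not called without any one of the resident libraries or without transplanted replicate 2 or 4, with adjusted p up to 0.093. With all groups in one fit the adjusted p was 0.14 for Ctsd and 0.082 for Ctsz.

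Ctsa, Ctsb, Ctsf and Ctsl differed little, with log2 fold changes of -0.04 ± 0.07, 0.00 ± 0.07, -0.06 ± 0.11 and 0.09 ± 0.10 (adjusted p = 0.729, 0.983, 0.758 and 0.609). Ctss stood at 0.23 ± 0.08 (adjusted p = 0.108), and it was called at 0.27 (adjusted p = 0.041) where the trend with gene length was removed. Cst3 stood at -0.31 ± 0.11 (adjusted p = 0.106), with transplanted replicate 2 inside the resident range and the other 3 libraries below it. Without that library it was called lower, at -0.44 (adjusted p = 0.00765), and DESeq2 called it at -0.32 (adjusted p = 0.041).

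The balance of inhibitor to protease transcripts was read within each library, as a ratio of TPM that a single scaling factor per library cannot move. Removal of the trend with gene length acts by gene, so it could move the ratio, and it was not applied here. The ratio of Cst3 to the summed TPM of the 7 cysteine cathepsins was 0.241, 0.385 and 0.243 in cultured libraries. It was 3.72, 4.16, 3.74 and 3.78 in resident libraries and 2.89, 3.13, 2.46 and 2.40 in transplanted ones. The 3 groups did not overlap, with the transplanted libraries between the others and nearer to the resident ones. The ratio of Cst3 to Ctsd was 0.213, 0.370 and 0.220 in cultured, 3.25, 3.56, 3.61 and 3.71 in resident, and 2.60, 2.92, 2.05 and 1.92 in transplanted libraries, in the same order and again without overlap. No test was made of these ratios, and they are of transcripts, not of protein or activity.

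**Figure D4:**
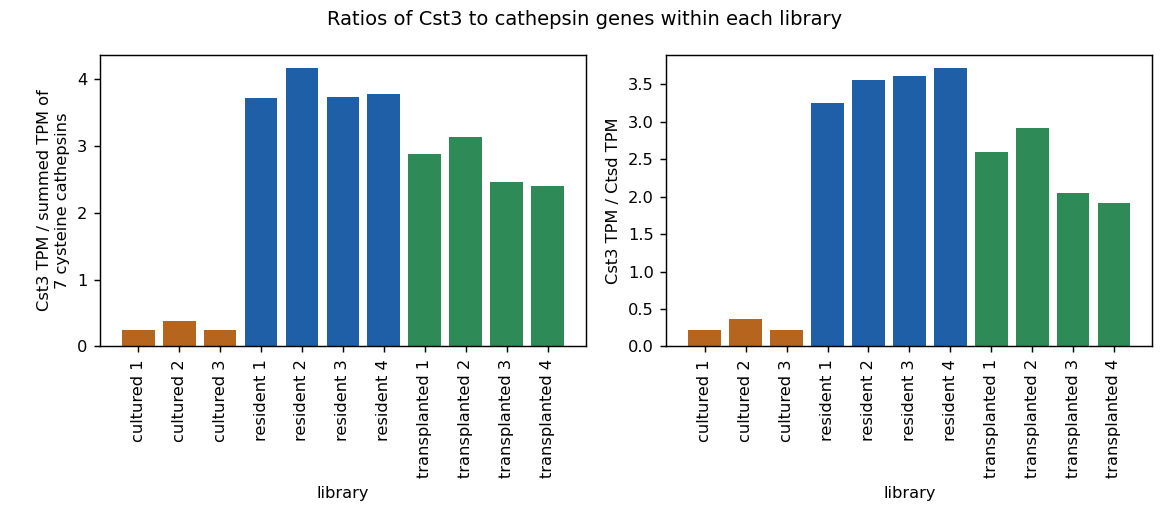
Ratio of Cst3 TPM to the summed TPM of Ctsb, Ctsc, Ctsf, Ctsh, Ctsl, Ctss and Ctsz (left) and to Ctsd TPM (right), one bar for each library. Both ratios are below 0.4 in each cultured library and above 1.9 in each sorted one.

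Other genes of the pathway were taken from 5 lists with 69 genes, of which 50 were in the table. Of the other cystatins and cathepsin inhibitors, 7 of the 8 tested were called higher in culture than in resident cells, against 37.9% of all genes, and 1 lower, against 37.2%. Csta2, Cstdc4 and Serpinb1a passed the filter on low counts through the cultured libraries alone, so they had to differ. Of the other 5, 4 were higher and 1 lower. Cst3 itself was lower in culture. Cstb, which encodes the intracellular cathepsin inhibitor stefin B, averaged 358 CPM in cultured, 24.0 CPM in resident and 19.5 CPM in transplanted libraries. Its log2 fold change in culture was 3.94 ± 0.14 (adjusted p = 2.44e-08). Serpinb6a, whose human relative blocks cathepsin G, averaged 268, 8.57 and 8.94 CPM, and its log2 fold change in transplanted against cultured cells was -4.92 ± 0.21 (adjusted p = 4.06e-08). The stefin A genes have near-identical copies, so their values are uncertain. Among them Csta2 had 1331 counts over the cultured libraries and 1 over the resident ones, a ratio of 1851 (exact Poisson 95% interval 332 to 73120), and was at least 607-fold higher in culture than in transplanted cells, where all libraries were at 0 (floor of 3 counts over the group). Cstdc4 had 321 counts in culture and 0 in both sorted groups, at least 149-fold and 146-fold higher by the same floor. Serpinb1a, a serpin of myeloid cells, averaged 8.18 CPM in culture and 0.0469 CPM in resident libraries (log2 fold change 7.33 ± 0.48). Its ratio to transplanted libraries, which held 2 counts, was 347 (95% interval 96.1 to 2867). Cst6, the gene of cystatin E/M, had 10 counts in culture and 0 and 2 in the resident and transplanted groups, too few to be tested.

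Cst7, which encodes cystatin F, an inhibitor inside the endosomes and lysosomes of immune cells that acts on cathepsin C, was the inhibitor called lower in culture. It averaged 4.38 CPM in cultured, 7.66 CPM in resident and 17.4 CPM in transplanted libraries. It was higher in transplanted than in resident cells by 1.19 ± 0.22 (adjusted p = 0.00552). Ctla2b, related to the propeptide of cathepsin L, was higher there as well, by 1.58 ± 0.17 (adjusted p = 0.000211). They were the 2 of 5 inhibitors tested in that comparison that were called higher, against 7.17% of all genes, and 0 were called lower, against 5.86%. Cstb was at the threshold there (-0.29 ± 0.09, adjusted p = 0.0508), and DESeq2 called it lower at -0.31 (adjusted p = 0.022), as did the tests with library totals and on TPM. Against cultured cells, 1 of 8 inhibitors was called higher in transplanted cells, against 36.9% of all genes, and 7 lower, against 35.5%. The counts were 1 and 4 of the 5 that did not pass the filter through the cultured libraries alone.

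Among the other lysosomal proteases, 7 of 11 were called higher in culture than in resident cells, against 37.9% of all genes, and 3 lower, against 37.2%. Of these, 4 (Ctse, Ctsk, Napsa and Ctsw) passed the filter through the group where they are high alone, and without them 4 of 7 were higher and 2 lower. On TPM 3 were higher and 4 lower of 8, where 1944 of 11191 genes were higher and 7633 lower. In transplanted against cultured cells 3 of 11 were higher, against 36.9%, and 6 lower, against 35.5%, or 2 and 4 of the 8 that passed through both groups. On TPM 4 of 9 were higher and 2 lower there, against 7570 and 1803 of 11142 genes. With library totals the counts were 4 and 4 of 11, against 6478 and 2907 of 12284 genes. In transplanted against resident cells 3 of 9 were higher, against 7.17%, and 0 lower, against 5.86%. Of the 3, Ctse, passed through the transplanted libraries alone, and the count was 1 without resident replicate 1. Lgmn, which encodes legumain, the asparaginyl endopeptidase that cuts several cathepsin precursors, was lower in culture like Ctsf. It averaged 2711 CPM in cultured, 7620 CPM in resident and 7887 CPM in transplanted libraries. Its log2 fold change was -1.45 ± 0.14 (adjusted p = 1.03e-05) in culture and 0.06 ± 0.07 (adjusted p = 0.666) in transplanted against resident cells. Ctso, another papain-family gene, was lower in culture by a log2 fold change of -1.63 ± 0.16 (adjusted p = 1.54e-05). Ctse, the aspartic cathepsin E, was higher in transplanted than in resident cells by 2.57 ± 0.56 at low levels of 2.15 and 0.357 CPM. The peptidase genes Cpq and Dpp7 were higher there by 0.87 ± 0.20 (adjusted p = 0.0167) and 0.35 ± 0.09 (adjusted p = 0.036).

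The farthest of these proteases were low or rare in sorted cells. Napsa, Ctsk, Ctsw and Ctse passed the filter in cultured against resident cells only through the group where they are high. They had to differ there, so no p-value is given. Napsa, which encodes the aspartic protease napsin A, averaged 32.3 CPM in cultured, 0.223 CPM in resident and 0.261 CPM in transplanted libraries (log2 fold change in culture 7.19 ± 0.47). Ctsk, cathepsin K, the collagen-cutting enzyme of osteoclasts, averaged 2.38, 0.187 and 0.236 CPM (3.67 ± 0.48). Ctsw, known from lymphocytes, went the other way at 0.064, 0.842 and 0.729 CPM (-3.56 ± 0.68). Ctse stood at 2.80 ± 0.65 in cultured against resident cells. In transplanted against cultured cells the log2 fold changes were -6.94 ± 0.35 for Napsa, -3.32 ± 0.42 for Ctsk, 3.37 ± 0.68 for Ctsw and -1.62 ± 0.13 for the carboxypeptidase gene Scpep1.

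Of the 10 genes of lysosomal sorting, 7 were called higher in culture than in resident cells, against 37.9% of all genes. Another 3 were lower, against 37.2%. With any 1 library left out, 5 to 6 were higher. With upper quartile scaling 4 were higher (4189 of 12406 genes), and with library totals 2 (3054 of 12406 genes). On TPM 2 were higher and 8 lower, where 1944 of 11191 genes were higher and 7633 lower. Igf2r, the large receptor for mannose 6-phosphate, passed the filter through the cultured libraries alone. Without it 6 of 9 were higher and 3 lower with TMM. Igf2r averaged 32.3 CPM in culture and 0.336 CPM in resident libraries, a log2 fold change of 6.60 ± 0.32. M6pr, the small one, averaged 515 and 329 CPM (0.68 ± 0.11, adjusted p = 0.000395) and stood at -0.42 on TPM. Of the adaptors that carry these receptors, Gga2 was higher in culture (1.93 ± 0.17, adjusted p = 8.46e-06) and Gga3 lower (-1.79 ± 0.13, adjusted p = 2.53e-06). Both kept these signs on TPM, at 0.67 and -2.67. In transplanted against cultured cells 3 of the 10 were higher (36.9% of all genes) and 5 lower (35.5%), or 3 and 4 of 9 without Igf2r. On TPM 7 were higher and 1 lower, where 7570 of 11142 genes were higher and 1803 lower. With TMM the log2 fold changes were -6.25 ± 0.24 for Igf2r, 1.85 ± 0.13 for Gga3, -1.61 ± 0.29 for Gga2 and 0.70 ± 0.16 for Nagpa, whose enzyme uncovers the tag. In transplanted against resident cells 0 of 9 were called lower and 1 higher, against 7.17% of all genes. This was Gnptab, which encodes the enzyme that starts the mannose 6-phosphate tag (0.70 ± 0.13, adjusted p = 0.00511).

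Of the 5 regulators, Tfec, a relative of TFEB found in macrophages, averaged 149 CPM in cultured, 0.255 CPM in resident and 0.821 CPM in transplanted libraries. Its log2 fold change in culture was 9.20 ± 0.23. Tfec passed the filter there through the cultured libraries alone, so it had to differ and no p-value is given. With TMM, Tfeb itself read 22.5, 23.6 and 23.4 CPM on average and was not called in any comparison (adjusted p = 0.913, 0.893 and 0.962). On TPM it was among the 4 regulators called lower in culture than in resident cells. Tfe3, a close relative of Tfeb, and Flcn, which controls where both proteins lie in the cell, were lower in culture (-0.71 ± 0.19 and -1.59 ± 0.14, adjusted p = 0.00789 and 7.7e-06). Mitf, of the same family, stood at 0.52 ± 0.14 (adjusted p = 0.00736) in culture but at -0.52 on TPM. In all, 2 of the 5 regulators were higher and 2 lower in culture than in resident cells (37.9% and 37.2% of all genes). Without Tfec the counts were 1 and 2 of 4. In transplanted against cultured cells 2 were higher and 2 lower (36.9% and 35.5%). On TPM 1 was higher and 4 lower in culture than in resident cells (1944 and 7633 of 11191 genes). In transplanted against cultured cells 4 were higher and 1 lower on TPM (7570 and 1803 of 11142 genes). In transplanted against resident cells 1 of the 5 was called higher, against 7.17% of all genes, and 0 lower, against 5.86%. The 1 was Tfec (1.67 ± 0.47). Tfec passed the filter there through the transplanted libraries alone, so it had to differ and no p-value is given. Without Tfec 0 of 4 were higher. Its call held with 1 library left out only without resident replicate 2 or transplanted replicate 3. On TPM 0 regulators were called there. Of the 8 partners and substrates, 7 were called higher in culture than in resident cells, against 37.9% of all genes, and 0 lower, against 37.2%. All 8 were called lower in transplanted than in cultured cells, against 35.5%. On TPM the split was 3 and 3 in both, against the all-gene counts on TPM given above for the regulators. Psap, the precursor of the saposins, which cathepsin D cuts, averaged 4495 CPM in cultured, 1260 CPM in resident and 1302 CPM in transplanted libraries (1.87 ± 0.11 in culture, adjusted p = 7.06e-07, and 0.77 on TPM). Grn, which encodes progranulin, a protein that cysteine cathepsins cut, averaged 4988, 2827 and 3270 CPM (0.86 ± 0.09, adjusted p = 2.39e-05, but -0.25 on TPM). Lamp1, a membrane protein of lysosomes, stood at 1.34 ± 0.25 (adjusted p = 0.000973), and at 0.15 and not called on TPM. Galns and Glb1, lysosomal hydrolases that associate with cathepsin A, were also higher in transplanted than in resident cells (0.48 ± 0.08 and 0.31 ± 0.07, adjusted p = 0.00313 and 0.0196), as was Neu1, the sialidase it protects (0.24 ± 0.07, adjusted p = 0.0489). These were the 3 partners called higher there, against 7.17% of all genes, and 1 was called without resident replicate 1, 2 or 3. Cd74, the invariant chain that cathepsin S trims during antigen presentation, averaged 121 CPM in cultured, 113 CPM in resident and 28.6 CPM in transplanted libraries. It was the 1 partner of 8 called lower in transplanted than in resident cells, against 5.86% of all genes (log2 fold change -1.97 ± 0.24, adjusted p = 0.000421).

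The genes whose pattern over the 11 libraries was nearest to each of the 2 most abundant members were found among 8758 genes by the root mean square difference of centred log2 CPM. For Cst3 they were Magi1 (0.13), Susd3 (0.15), Zfp873 (0.15), Scoc (0.16) and Rilpl1 (0.17). For Ctsd they were Hsd17b12 (0.08), Apmap (0.09), Birc3 (0.09), Elovl5 (0.10) and Cdk20 (0.10). Among the 10 members the nearest pairs were Ctss with Ctsz (0.18) and Ctsb with Ctsl (0.18), and Ctsd lay nearest to Ctsh (0.21), Ctsa to Ctsl (0.22), Ctsf to Ctss (0.30) and Ctsc to Ctsb (0.52). Cst3 lay far from all 9, with Ctsf nearest at 0.96.

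The authors' counting did not give whole reads for every member. Ctsa, Ctsb and Ctsl were not whole in 11 of 11 libraries, so some of their reads were shared by estimate, and the other 7 were whole. RefSeq places other genes over some members, and strand is not given in the labels, so reads of such pairs cannot be told apart. The overlapping genes held 2.41% of the member's counts for Nelfcd at Ctsz, 2.31% for Pltp and 0.648% for Neurl2 at Ctsa, and 0.212% for Fdft1 at Ctsb.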

How the data were processed

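Per the labels' protocols, TRIzol was used to extract RNA, and Smart-Seq libraries were made from 1 ng. Per the file headers, the deposited table holds, per gene and library, an FPKM, a TPM and an expected count. The authors' expected counts are not scaled to depth, and between 81.5% and 84.9% of them are whole numbers. The deposited TPM values are scaled for length and library. The deposited FPKM values served only to compute the length that counts and FPKM imply. HISAT, Bowtie2 and the build GRCm38.p6 are named in the submitters' processing notes. The sources used here do not give the counter, the annotation or the strand. A RefSeq table of the same build matched 16845 of 16894 identifiers (99.7%).

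Libraries were grouped by their titles. Expected counts were rounded, and edgeR 4.0.16 (R 4.3.3) was run separately on each pair of groups (TMM scaling, edgeR's filter on low counts, quasi-likelihood test, Benjamini-Hochberg adjustment over all genes). A floor of 3 counts and exact Poisson intervals at 95% cover counting error only, as no molecular identifiers were used. The alternatives were DESeq2 1.42.0, limma 3.58.1 on log2(TPM + 1) and log2(TPM + 0.1) for genes above a filter of 1 TPM, upper quartile scaling, library totals, no filter, one fit of all groups, a replicate block, each library left out, and, chosen after seeing the data, removal of the trend with gene length. The scripts were tested on simulated data. The members, lists and tests were chosen with earlier results of these data known. The genes with the nearest patterns were named as the 5 with the smallest difference for the 2 most abundant members, among genes with a mean of at least 10 CPM over all libraries. List genes were marked as passing the filter through 1 group alone where the other group had fewer libraries over edgeR's cutoff than the filter asks for.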

Additional observations from a re-analysis of the deposited data

Results flagged for a closer look

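Of 46 sets of values over the 4 libraries of a sorted group, 2 had 1 library farther from the others than Dixon's 95% limit on the gap divided by the range. Chance alone flags about 1 in 20 such sets. In resident libraries the ratio of Cst3 TPM to the summed TPM of the 7 cysteine cathepsins was 4.16 in replicate 2 and 3.72 to 3.78 in the other 3, a gap over the range of 0.877. In transplanted libraries the length of Ctsl that the deposited counts and FPKM imply was 1448 bases in replicate 4 and at most 1469 bases in the others, a gap over the range of 0.868. This was not particular to Ctsl. The implied lengths of Ctsa, Ctsd, Ctsf, Ctsh, Ctss, Ctsz and Cst3 were also shortest in replicate 4, but not those of Ctsb and Ctsc.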

How the results depend on the processing

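In cultured against resident cells the counts of members called higher and lower (6 and 2) became 3 and 6 on TPM with either pseudocount. Over all genes they were 1944 and 7633 of 11191 with pseudocount 1. With library totals the member counts were 4 and 4, as Ctsd and Ctsh were no longer called. Over all 12406 genes library totals gave 3054 higher and 6670 lower, against 4704 and 4612 with TMM. With the length trend removed the member counts were 6 and 4. In transplanted against cultured cells the counts (3 higher, 4 lower) became 6 and 2 on TPM with either pseudocount. Over all genes they were 7570 and 1803 of 11142 with pseudocount 1. The higher count of members was 5 with library totals. On TPM, with either pseudocount, the log2 fold change in culture against resident cells was -0.13 for Ctsa, -0.50 for Ctsd, -0.39 for Ctsh and -0.95 for Ctsz. Ctsz stood at -0.42 with library totals and at -0.34 with the length trend removed. In transplanted against cultured cells it was 0.11 for Ctsa, 0.81 for Ctsd and 1.01 for Ctsh on TPM, and 0.46 for Ctsh with library totals. The median of all genes moved with these scalings, and the cause was not tested.

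In transplanted against resident cells 4 members were called higher, 2 with all groups in one fit, and 2 to 4 with 1 library left out. DESeq2 called 1 lower, and 0 to 1 were lower with 1 library left out. The same replicate numbers did not pair the samples: correlations of same-numbered deviations ran from -0.09 to 0.15, and not every sample correlated best with its own number. With the replicate as a block, 2 members were called higher in transplanted than in resident cells, and over all genes 707 were higher and 592 lower, against 855 and 699.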
